A study of Mus musculus with 8 samples.

Results

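The genes described here encode the switches, fusion proteins and sorting coats of membrane traffic in MC3T3-E1 cells, a mouse osteoblastic line. They were chosen by symbol alone, as numbered Rab GTPases, syntaxins, VAMPs, SNAP-25 relatives, sorting nexins, VPS genes and exocyst genes. The symbol rule found 152 genes among the 20972 rows of the authors' deposited table. The study measured total RNA of MC3T3-E1 subclone 14, a clonal line from mouse calvaria, grown to near confluence. One group was exposed for 24 h to 10 µM Yoda1, a compound that opens PIEZO1, the stretch-activated channel for cations, and the other for 24 h to DMSO, the solvent of Yoda1. Each group has 4 samples in the labels, and 1 of each (DMSO replicate 3 and Yoda1 replicate 1) is marked there as left out for batch variation, which leaves 3 per group. The series' design text describes human endothelial cells instead, so the sample labels were followed. The labels name no separate cultures, so p-values reflect how far these samples scatter, and that scatter may be technical.

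Rab proteins are small GTPases that mark the membranes of each organelle. A Rab bound to GTP recruits tethers, such as the HOPS and exocyst complexes, which hold a vesicle near its target. SNARE proteins of the vesicle and the target then zip together and fuse the membranes, while sorting nexins and retromer pull cargo out of endosomes for reuse. Osteoblasts use this machinery to export collagen and matrix vesicles and to recycle integrins and signalling receptors.

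Every expression value below comes from the authors' deposited table, which lists per gene the normalized count averaged over libraries and the log2 ratio of Yoda1 to DMSO with its standard error, but no value per library. Group levels are therefore given as those implied by the mean and the fold change for groups of equal size, and whether single libraries overlap cannot be seen. A gene is called higher or lower where its DESeq2 adjusted p in the table is under 0.05, intervals are 95% normal intervals of the fold, and depth per library is not known here. In bulk RNA, fewer cells of a type and less RNA per cell cannot be told apart. Of 9 osteoblast lineage markers, all had an adjusted p and their means ran from 4.70 (Bglap) to 279469 (Col1a2). Of these markers, 7 were called lower and 1 higher, with log2 fold changes from -5.91 (Alpl) to 2.89 (Spp1). The lineage markers thus changed as well, and their part in the results for the trafficking genes was not tested. Of 8 endothelial markers, 5 had a row and the highest mean was 6.37 (Vwf), with Cdh5 at 0.504. Adipocyte markers reached 2.93 (Fabp4), macrophage markers 13.8 (Csf1r) with Ptprc at 0.157, and skeletal muscle markers 12.1 (Acta1), and none of these was called.

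The trafficking genes split almost evenly between rises and falls, and their changes were mostly small. Of the 152 genes, 144 had an adjusted p. Of these, 74 were called (51.4%, against 44.5% of all tested genes). By direction, 36 members were higher and 38 lower, while 22.4% of all tested genes were higher and 22.1% lower. Called members with an absolute log2 fold change above 0.5 numbered 35 (24.3%, against 27.1% of all tested genes). Of them 16 were higher and 19 lower, while 13.8% of all tested genes were higher and 13.3% lower by that threshold. The members lie at higher means than most genes, with a median of 829 against 423. At means of at least 100, 52.2% of the 134 members and 56.5% of all 10167 genes were called. The median absolute log2 fold change at that level was 0.26 for members and 0.33 for all genes. The share called was near that of other genes of like abundance. With a call, 0 of 144 members changed by more than 2 on the log2 scale, against 417 of 14653 tested genes (2.85%). Calls were also recomputed with a t distribution (4 degrees of freedom) for the ratio of change to error, which gave 10 members higher and 15 lower, while the shares over all tested genes fell to 10.4% and 10.0%. Scaling the groups to equal summed counts gave 43 members higher and 26 lower, and moved all tested genes likewise, to 28.2% higher and 17.1% lower. These shares over all tested genes also apply to the counts of each smaller group and list below. The term "no filter" below means adjustment over all rows with a p-value.

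**Figure D1:**
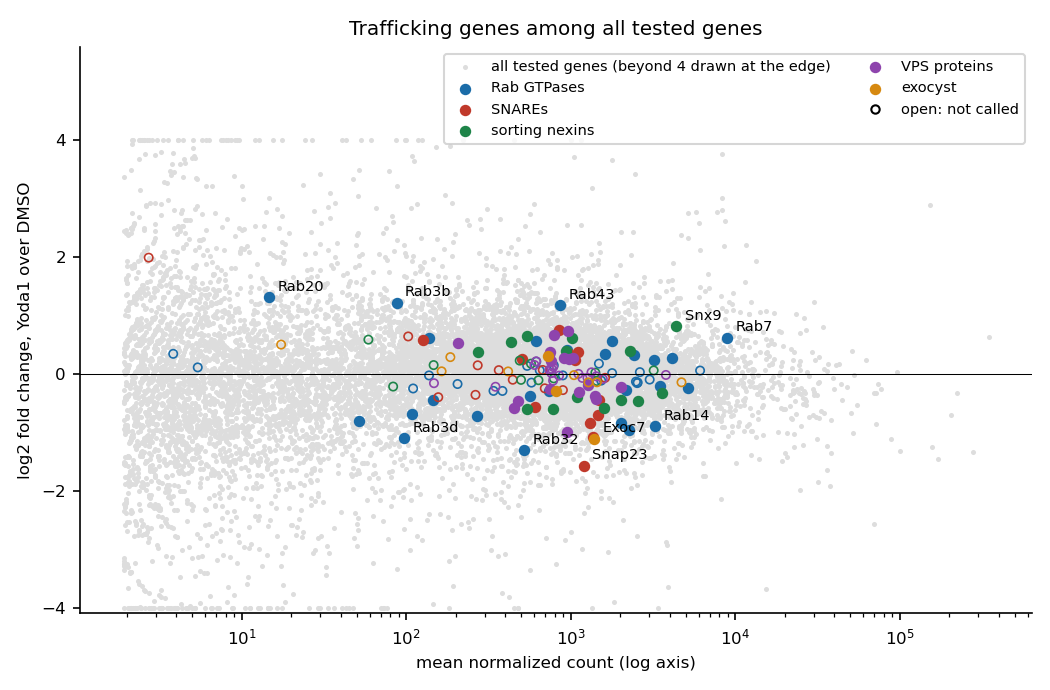
Log2 fold change (Yoda1 over DMSO) against mean normalized count (log axis) for all 14653 tested genes in grey and the 144 tested trafficking genes in colour, filled where called at a DESeq2 adjusted p under 0.05. The filled coloured points lie between -1.57 (Snap23) and 1.32 (Rab20), within the spread of the grey ones.

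By count, each family held both directions, as did all tested genes, with 22.4% higher and 22.1% lower. Of 48 tested Rab genes, 12 were higher and 14 lower. Of 23 tested SNARE genes, 6 were higher and 6 lower. The 27 tested sorting nexins gave 8 higher and 7 lower, and the 35 VPS genes 9 and 9. The 11 tested exocyst and exocyst-like genes gave 1 higher and 2 lower, or 27.3% called, against 44.5% of all tested genes.

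**Figure D2:**
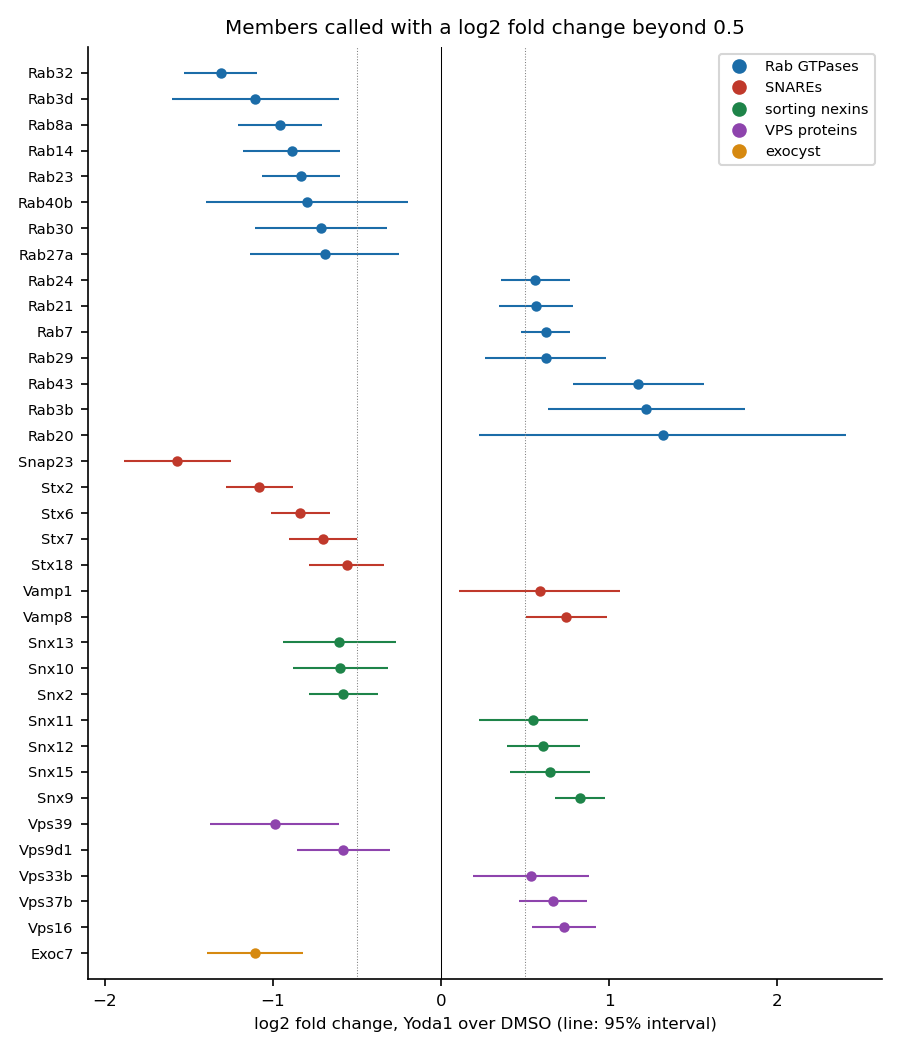
Log2 fold change (Yoda1 over DMSO) with 95% intervals for the 35 trafficking genes called with an absolute log2 fold change above 0.5, grouped by family, with dotted lines at that threshold. Snap23 is lowest at -1.57 and Rab20 highest at 1.32, the latter with the widest interval.

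Promoter sequence was searched for short motifs. The palindrome TCACGTGA is the core of the CLEAR element, which TFEB and its relatives bind in many lysosomal genes. It was searched on both strands in windows from 250 bases before to 50 after each annotated start in RefSeq (GRCm38.p6), which matched 119 of the 152 members by symbol. The core was present in 7 of the 119 (5.88%), against 1.12% of all 27025 genes with a window and 2.22% of the 10149 tested ones. Vps16, Rab21 and Rab24 were called higher, Rab5a and Stx6 lower, and Vps26a and Vps33a were not called, so the letters occurred in genes of both directions. Sequences are shown for the 5 called genes and not for Vps26a and Vps33a. The core is in capitals, each line reads 5′ to 3′ on the gene's strand, and positions are GRCm38.p6.
Vps16, chr2:130424261-130424319, plus strand: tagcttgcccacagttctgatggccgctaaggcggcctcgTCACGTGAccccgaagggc
Rab21, chr10:115315592-115315662, minus strand: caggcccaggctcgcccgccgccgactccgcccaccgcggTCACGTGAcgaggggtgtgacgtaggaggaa
Rab24, chr13:55321972-55322019, minus strand: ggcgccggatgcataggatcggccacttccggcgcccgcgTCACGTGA
Rab5a, chr17:53479098-53479185, plus strand: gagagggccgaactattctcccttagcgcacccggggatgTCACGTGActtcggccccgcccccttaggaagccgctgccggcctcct
Stx6, chr1:155158577-155158664, plus strand: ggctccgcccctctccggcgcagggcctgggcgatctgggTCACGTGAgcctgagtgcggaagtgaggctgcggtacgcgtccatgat

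The core begins 19 bases before the annotated start in Vps16, 31 before it in Rab21, 96 before it in Rab5a, 86 before it in Stx6, and just past the start in Rab24. The shorter E-box CACGTG, which lies inside that core, was in 16 of the 119 members (13.4%, against 11.6% of tested genes). The cAMP response element TGACGTCA was in 2 of them (1.68% against 3.48%). The AP-1 motif TGACTCA was found in 7 (5.88% against 4.86%). The GC box GGGCGG was in 90 (75.6% against 68.4%). These matches are letters in a window and were not tested.

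Among the Rab genes of late endosomes and lysosomes, Rab7 rose and Rab32 fell. Rab7, which drives fusion of late endosomes with lysosomes, is the most abundant member by mean (8964 normalized counts) and also per kilobase of transcript, whether the median (5410) or the longest (4152) protein-coding transcript sets the length. Its implied level went from 7060 with DMSO to 10867 with Yoda1, a 1.54-fold rise (95% interval 1.39 to 1.70, DESeq2 adjusted p = 8.39e-16). Rab24, an atypical Rab linked to autophagy, rose 1.48-fold (1.28 to 1.70, mean 615), and Rab29, a Golgi and lysosome Rab that recruits the kinase LRRK2, rose 1.54-fold (1.20 to 1.97, mean 138). Rab32, which serves lysosome-related organelles such as melanosomes, went the other way, from an implied 739 to 298 normalized counts. That is 2.48-fold lower (2.13 to 2.88, DESeq2 adjusted p = 1.40e-30), the smallest adjusted p of all members. Rab9, which returns cargo from late endosomes to the Golgi, had a smaller fall of 1.22-fold (1.06 to 1.40). Of the 8 tested genes of the group, 3 were higher and 2 lower, against 22.4% and 22.1% of all tested genes. Rab7b (log2 fold change 0.15, standard error 0.11) and Rab39b (-0.25, 0.20) were not called. The calls of Rab29 and Rab9 were lost with the t distribution, and that of Rab9 also with equal summed counts.

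Of 10 tested Rab genes of exocytosis, 5 were lower, 1 was higher and 4 were not called, against 22.1% lower and 22.4% higher of all tested genes. With the t distribution 1 was lower and 0 were higher. Rab8a, which carries vesicles from the Golgi and recycling endosomes to the plasma membrane and the cilium, fell from an implied 2987 to 1540 normalized counts, or 1.94-fold (95% interval 1.63 to 2.30, DESeq2 adjusted p = 7.20e-13). Its relative Rab8b, at a lower mean of 577, was not called, at -0.15 on the log2 scale (standard error 0.11), and the intervals of these genes do not overlap. Rab27a and Rab27b, which dock secretory vesicles and exosome-bearing bodies at the plasma membrane, were 1.61-fold (1.19 to 2.19) and 1.29-fold lower (1.10 to 1.51) at means of 109 and 564. Sytl2, an effector that links Rab27 to the plasma membrane, was lower too, by 2.68-fold (2.31 to 3.11).

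The Rab3 genes, known for regulated secretion, parted among themselves. Rab3d fell 2.15-fold (95% interval 1.52 to 3.03) from an implied 132 to 61.4 normalized counts, and Rab3a fell 1.37-fold (1.06 to 1.77) at a mean of 145. Rab3b rose 2.33-fold (1.55 to 3.50), from an implied 52.6 to 123. Rab3c, with a mean of 1.53, was not tested. These 3 calls are of genes at low means and were lost with the t distribution, as were those of Rab27a and Rab27b. Equal summed counts or no filter also ended that of Rab3a. Rab10 and Rab12, the most abundant of the exocytosis group by mean (3019 and 2534), had log2 fold changes of -0.10 and -0.16 (standard errors 0.07 and 0.07) and were not called.

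Among Rab genes of early and recycling endosomes, 4 of 14 tested were higher and 3 lower, against 22.4% and 22.1% of all tested genes. Rab14, which works between the Golgi and early endosomes, fell from an implied 4214 to 2276 normalized counts, or 1.85-fold (95% interval 1.51 to 2.26, DESeq2 adjusted p = 1.44e-08). Rab21, a Rab of integrin traffic, rose 1.48-fold (1.27 to 1.73, DESeq2 adjusted p = 2.56e-06), from an implied 1432 to 2122. Rab31 and Rab11b, of trans-Golgi and recycling traffic, rose 1.26-fold (1.11 to 1.42) and 1.18-fold (1.06 to 1.33). Rab20, of endosomes and phagosomes, rose 2.49-fold (1.17 to 5.31) at a mean of only 14.7, a call that was lost with no filter. The fusion Rabs of early endosomes moved little: Rab5a fell 1.21-fold (1.08 to 1.36), Rab5c fell 1.16-fold (1.06 to 1.27), and Rab5b stood at a log2 fold change of 0.03 (standard error 0.07) without a call. With equal summed counts, Rab5a and Rab5c lost their calls, and with the t distribution only Rab14 and Rab21 of this group kept theirs.

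Rab genes of the ER and Golgi included the largest Rab rise at a mean above 100. Rab43, a Golgi Rab, rose 2.26-fold (95% interval 1.72 to 2.95, DESeq2 adjusted p = 2.37e-08), from an implied 529 to 1194 normalized counts. Its exons overlap the protein-coding gene Gm45140 on the same strand in GENCODE M21, so reads of these genes may be shared. Rab30, also of the Golgi, fell 1.64-fold (1.25 to 2.15). Rab34, needed for cilium formation, and Rab6b, a relative of the Golgi Rab Rab6a, rose 1.27-fold (1.12 to 1.44) and 1.32-fold (1.14 to 1.53), while Rab6a itself was not called (log2 fold change -0.13, standard error 0.09). The ER-to-Golgi Rabs Rab1a and Rab1b crossed: Rab1a fell 1.17-fold (1.08 to 1.28) and Rab1b rose 1.20-fold (1.06 to 1.37), at means of 5192 and 4118. Rab2a, next to Rab7 in mean (6115), stood at 0.06 on the log2 scale (standard error 0.08). Of these calls, only that of Rab43 held with the t distribution, and that of Rab1a was also lost with equal summed counts.

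Of the remaining Rab genes, Rab23, which restrains hedgehog signalling in mice, fell 1.78-fold (95% interval 1.52 to 2.09, DESeq2 adjusted p = 2.45e-11), from an implied 2600 to 1460 normalized counts. Rab40b, a substrate adaptor of a ubiquitin ligase, fell 1.74-fold (1.15 to 2.63) at a mean of 51.3, a call that was lost with the t distribution and with equal summed counts. Rab28 and Rab40c had log2 fold changes of -0.02 and 0.06 (standard errors 0.09 and 0.10).

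Proteins that handle Rabs as a class were examined from lists outside the symbol rule. The prenylation and recycling list, whose products add the lipid anchor to Rabs and shuttle them between membranes, had 6 higher members and 1 lower of 9. Of all tested genes, 22.4% were higher and 22.1% lower. Rabac1, a Rab acceptor of Golgi membranes, rose 2.06-fold (95% interval 1.72 to 2.46), and Gdi2, which extracts Rabs from membranes, rose 1.81-fold (1.50 to 2.18) at a mean of 5540. Rabggta and Rabggtb, the subunits of the Rab geranylgeranyl transferase, rose 1.99-fold (1.56 to 2.53) and 1.33-fold (1.16 to 1.52). Chm, the escort protein that presents Rabs to that enzyme, fell 1.90-fold (1.56 to 2.32). With the t distribution the list had 5 higher and 1 lower, against 10.4% and 10.0% of all tested genes.

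Among Rab effectors, which carry out the function of active Rabs, falls outnumbered rises. Of 26 tested Rab effectors, 11 were lower and 2 higher. Of all tested genes, 22.1% were lower and 22.4% higher, which applies to the other lists of this paragraph too. Golga2 and Uso1, the Golgi tethers that Rab1 recruits, had log2 fold changes of -0.71 and -0.49 (standard errors 0.07 and 0.06), and Rab11fip5, a Rab11 effector, stood at 0.71 (0.09). Of 30 exchange factors, which load Rabs with GTP, 10 were lower and 4 higher, but with equal summed counts 7 were lower and 8 higher. Among them, Rab3il1, an exchange factor for Rab8 and Rab3, fell 3.16-fold (95% interval 2.24 to 4.47) at a mean of 82.2. Other listed exchange factors for these Rabs did not fall. Rab3ip, at a mean of 648, was not called (log2 fold change 0.19, standard error 0.10), and Madd, at a mean of 241, was higher (0.50, 0.19). Dennd2a fell 2.01-fold (1.77 to 2.28), Dennd4a fell 1.79-fold (1.54 to 2.09), and Rin1, which acts on Rab5, rose 1.69-fold (1.50 to 1.90). Of 32 tested GTPase-activating proteins, which switch Rabs off, 6 were higher and 8 lower, and with equal summed counts 11 were higher and 6 lower. Tbc1d4, which restrains glucose transporter export, was among the lower ones (log2 fold change -0.90, standard error 0.13). The effectors gave 11 lower and 5 higher with equal summed counts. That scaling gave 17.1% lower and 28.2% higher over all tested genes. With the t distribution, 6 effectors were lower and 2 higher, 6 exchange factors were lower and 1 higher, and 2 GTPase-activating proteins were lower and 1 higher. The shares over all tested genes were then 10.0% lower and 10.4% higher.

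The SNARE genes held the largest fall among the 144 tested members. Snap23, the SNAP-25 relative that most non-neuronal cells use for fusion at the plasma membrane, fell from an implied 1791 to 604 normalized counts, or 2.96-fold (95% interval 2.38 to 3.69, DESeq2 adjusted p = 6.08e-21). Stx2, a syntaxin of that membrane, fell 2.11-fold (1.84 to 2.43, DESeq2 adjusted p = 5.21e-25), from an implied 1844 to 873. Stx4a, another plasma membrane syntaxin, rose 1.18-fold (1.04 to 1.33). Snap47, a relative of Snap23, rose 1.30-fold (1.14 to 1.49), and Snap29, which acts in autophagosome fusion, was not called (log2 fold change -0.10, standard error 0.11).

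Vesicle SNAREs of the VAMP family went up where called. Of 6 tested, 4 were higher and 0 lower, against 22.4% and 22.1% of all tested genes. Vamp8, which acts in endosomes and in autophagosome-lysosome fusion, rose 1.68-fold (95% interval 1.42 to 1.98, DESeq2 adjusted p = 1.01e-08), from an implied 632 to 1060 normalized counts. Vamp3, of recycling endosomes, rose 1.29-fold (1.14 to 1.46), Vamp4, of the trans-Golgi network, 1.20-fold (1.04 to 1.39), and Vamp1 1.50-fold (1.08 to 2.09) at a mean of 126. Vamp2 and Vamp5 had log2 fold changes of 0.07 and -0.36 (standard errors 0.12 and 0.16). Only the call of Vamp8 held with the t distribution, and those of Vamp4 and Vamp1 were also lost with no filter.

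Syntaxins of inner membranes fell where called. Of 14 tested syntaxins of all membranes, 5 were lower and 1 higher, against 22.1% and 22.4% of all tested genes. The 5 include Stx2 and the 1 is Stx4a, both of the plasma membrane. Stx6, of the trans-Golgi network and early endosomes, fell 1.79-fold (95% interval 1.58 to 2.02, DESeq2 adjusted p = 2.91e-19), and Stx7, of late endosomes, fell 1.63-fold (1.41 to 1.87, DESeq2 adjusted p = 1.15e-10). Stx18, an ER syntaxin, fell 1.47-fold (1.26 to 1.72) and Stx5a, the Golgi syntaxin, 1.35-fold (1.19 to 1.54). Stx12 and Stx8, of endosomes, had log2 fold changes of -0.07 and 0.07 (standard errors 0.08 and 0.13). With the t distribution, Stx2, Stx6, Stx7, Stx18 and Snap23 kept their calls.

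Of 22 tested fusion genes that the symbol rule leaves out, 11 were lower, 1 was higher (Scfd2) and 10 were not called. Of all tested genes, 22.1% were lower and 22.4% higher. Among the partners of Stx5a and Stx18 in ER and Golgi fusion, Gosr1 fell 2.11-fold (95% interval 1.63 to 2.73), Sec22b 1.39-fold (1.22 to 1.59) and Gosr2 1.25-fold (1.13 to 1.38). With Stx5a and Stx18 counted in, 7 of the 10 SNARE genes placed at the ER and Golgi were lower and 0 were higher. Sec22a, a relative of Sec22b, fell 2.77-fold (2.09 to 3.68), and Napg, an adaptor of the SNARE-recycling ATPase NSF, fell 1.66-fold (1.41 to 1.96). With equal summed counts this list gave 7 lower and 2 higher, Bet1 and Use1 of the ER and Golgi genes losing their calls. With the t distribution it gave 4 lower and 0 higher. Of the lower ER and Golgi genes, Stx5a, Gosr2, Bet1 and Use1 lost their calls with the t distribution.

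**Figure D3:**
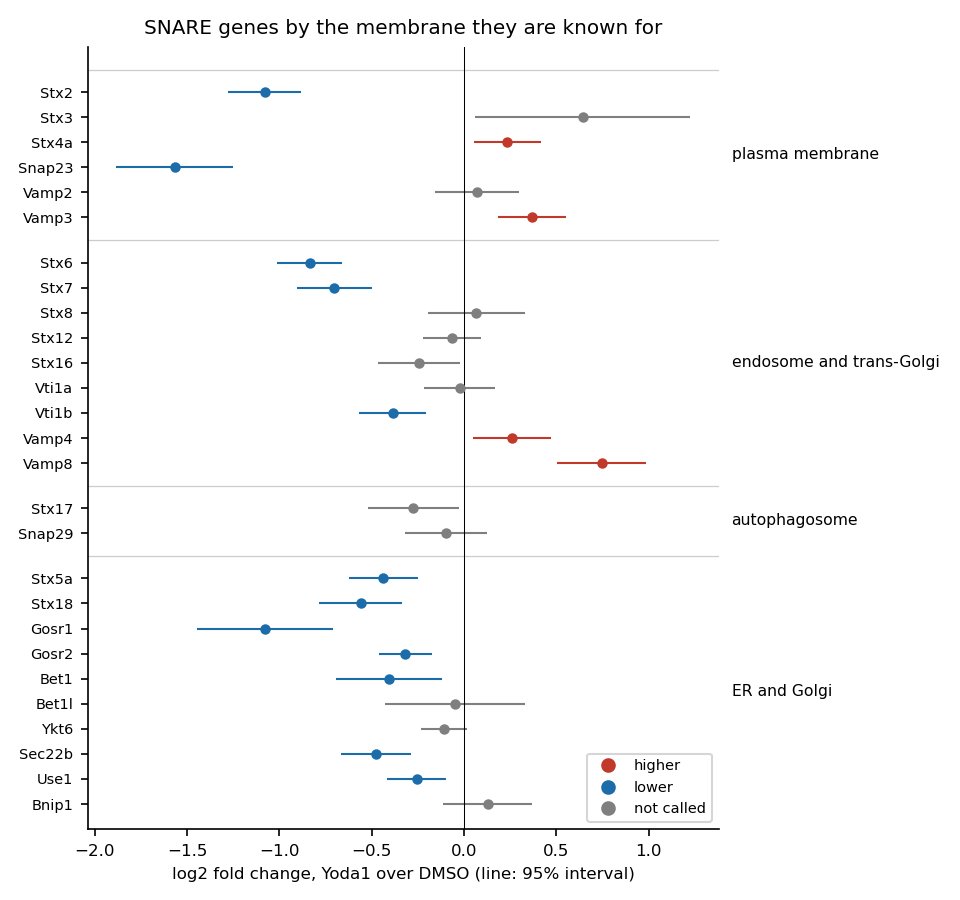
Log2 fold change (Yoda1 over DMSO) with 95% intervals for 27 SNARE genes, members and others, grouped by the membrane they are known for and coloured by call. At the ER and Golgi 7 of 10 are lower and 0 higher, against 22.1% and 22.4% of all tested genes. Of the 7, only Gosr1, Sec22b and Stx18 kept their calls with the t distribution. The plasma membrane and endosome groups hold both directions. Vamp3, described in the text as of recycling endosomes, is placed in the plasma membrane group here. Sec22a, Snap47 and Vamp1 are among the SNARE genes not shown.

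In the HOPS and CORVET tethers, the called genes of the shared core rose and the examined genes specific to either complex fell. These tethers share a core of VPS11, VPS16, VPS18 and VPS33A, to which HOPS adds VPS39 and VPS41 for fusion with lysosomes. The subunits specific to CORVET, for fusion of early endosomes, include VPS8, and only Vps8 of their genes was examined here. In the core, Vps16 rose 1.66-fold (95% interval 1.45 to 1.89, DESeq2 adjusted p = 6.89e-13), from an implied 721 to 1195 normalized counts, Vps18 rose 1.25-fold (1.09 to 1.44) and Vps11 1.17-fold (1.03 to 1.33). Vps33a stood at 0.00 on the log2 scale with an interval of -0.17 to 0.18. Vps39 fell 1.99-fold (1.52 to 2.59, DESeq2 adjusted p = 2.39e-06), from an implied 1261 to 635, Vps8 fell 1.38-fold (1.08 to 1.76) and Vps41 1.14-fold (1.02 to 1.28). Vps33b, a VPS33A homologue that with VIPAS39 delivers the collagen-modifying enzyme LH3, rose 1.45-fold (1.14 to 1.84) at a mean of 207. Of these, only the calls of Vps16 and Vps39 held with the t distribution. The calls of Vps41 and Vps8 were also lost with equal summed counts, and those of Vps11 and Vps41 with no filter. Trimmed-mean and median centring ended that of Vps41 as well.

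Genes of retromer alone were not called, while Vps29 and Vps35l fell. Vps35, the retromer scaffold at a mean of 3790, stood at -0.02 on the log2 scale with an interval of -0.15 to 0.11, and Vps26a and Vps26b were not called. Vps29, which serves both retromer and the related retriever complex, fell 1.30-fold (95% interval 1.16 to 1.46, DESeq2 adjusted p = 4.95e-05), and Vps35l, the retriever scaffold, fell 1.35-fold (1.16 to 1.56, DESeq2 adjusted p = 0.000253). Vps26c, the remaining retriever subunit, stood at -0.12 (standard error 0.11). Snx17, the adaptor that brings integrins to retriever, rose 1.31-fold (1.15 to 1.49). In the list of Commander and WASH genes, which act with retriever and retromer on endosomes, 5 of 17 were higher and 3 lower. Of all tested genes, 22.4% were higher and 22.1% lower. With the t distribution 1 of the list was higher and 3 were lower, against 10.4% and 10.0% of all tested genes. Commd7 and Commd5 stood at 0.83 and 0.86 (standard errors 0.14 and 0.21) and Commd8, Washc4 and Washc1 at -0.75, -0.66 and -0.54 (0.12, 0.09 and 0.11). The calls of Vps29, Vps35l and Snx17 were lost with the t distribution.

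Among sorting nexins that bend membranes through a BAR domain, Snx9 rose and several others fell. Snx9, which works with dynamin in clathrin-mediated endocytosis, rose from an implied 3159 to 5597 normalized counts, or 1.77-fold (95% interval 1.60 to 1.96, DESeq2 adjusted p = 5.96e-26). Its relative Snx18 fell 1.32-fold (1.17 to 1.48), and Snx33, the third of that subfamily, was not called (log2 fold change -0.08, standard error 0.10). Snx2, a retromer partner, fell 1.49-fold (1.30 to 1.72), and Snx4 and Snx7, which pair in endosomal recycling, fell 1.36-fold (1.20 to 1.53) and 1.39-fold (1.26 to 1.53). Snx1, Snx5 and Snx6, the other retromer partners, had log2 fold changes of -0.18, 0.06 and -0.12 (standard errors 0.08, 0.09 and 0.09) and were not called. All 5 calls of this group held with the t distribution.

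Of the other sorting nexins, 7 of 15 tested were higher and 3 lower, against 22.4% and 22.1% of all tested genes. Snx15 rose 1.56-fold (95% interval 1.33 to 1.84), Snx12 rose 1.52-fold (1.31 to 1.77) and Snx11 1.46-fold (1.17 to 1.83). Snx3, a relative of Snx12 that sends the Wnt carrier Wntless to retromer, fell 1.25-fold (1.13 to 1.38) at a mean of 3607. Snx10, whose loss in humans causes osteopetrosis through osteoclasts, fell 1.52-fold (1.25 to 1.84), and Snx13 fell 1.52-fold (1.21 to 1.92). Snx27, which links retromer to recycling receptors, stood at 0.02 (standard error 0.08). With the t distribution, Snx12 and Snx15 of this group kept their calls.

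ESCRT genes, whose products bud vesicles into endosomes and sever membranes, moved singly. Vps37b and Vps37a, alternative ESCRT-I subunits, rose 1.59-fold (95% interval 1.38 to 1.82, DESeq2 adjusted p = 9.11e-10) and 1.30-fold (1.12 to 1.52). Vps37c and Vps37d had log2 fold changes of 0.22 and -0.16 (standard errors 0.11 and 0.21). The ESCRT-II gene Vps25 and the ATPase gene Vps4b fell 1.24-fold (1.06 to 1.44) and 1.17-fold (1.06 to 1.30), while Vps4a stood at 0.03 (0.08). Of 20 tested ESCRT genes outside the symbol rule, 5 were higher and 5 lower, against 22.4% and 22.1% of all tested genes. The counts of these ESCRT genes became 8 and 5 with equal summed counts and 2 and 2 with the t distribution. Among the called genes were Tsg101, the core of ESCRT-I, at -0.82 (0.10), Chmp1a at 1.04 (0.12) and Chmp2a at -0.74 (0.09). The calls of Vps25 and Vps4b were lost with equal summed counts, and with the t distribution only Vps37b of the 4 called members kept its call.

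The exocyst tethers secretory vesicles to the plasma membrane. Of its 9 genes, 3 were called (33.3%, against 44.5% of all tested genes). Exoc7, which binds phosphoinositides of the plasma membrane, fell from an implied 1896 to 880 normalized counts, or 2.16-fold (95% interval 1.77 to 2.63, DESeq2 adjusted p = 3.76e-13). Exoc3 fell 1.22-fold (1.07 to 1.41) and Exoc2, through which RAL GTPases act on the complex, rose 1.23-fold (1.08 to 1.40). The other 6 subunit genes were not called, with log2 fold changes from -0.14 to 0.29. Exoc4, the most abundant of them, had an interval of -0.28 to -0.01. Only the call of Exoc7 held with the t distribution, and that of Exoc3 was also lost with equal summed counts.

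**Figure D4:**
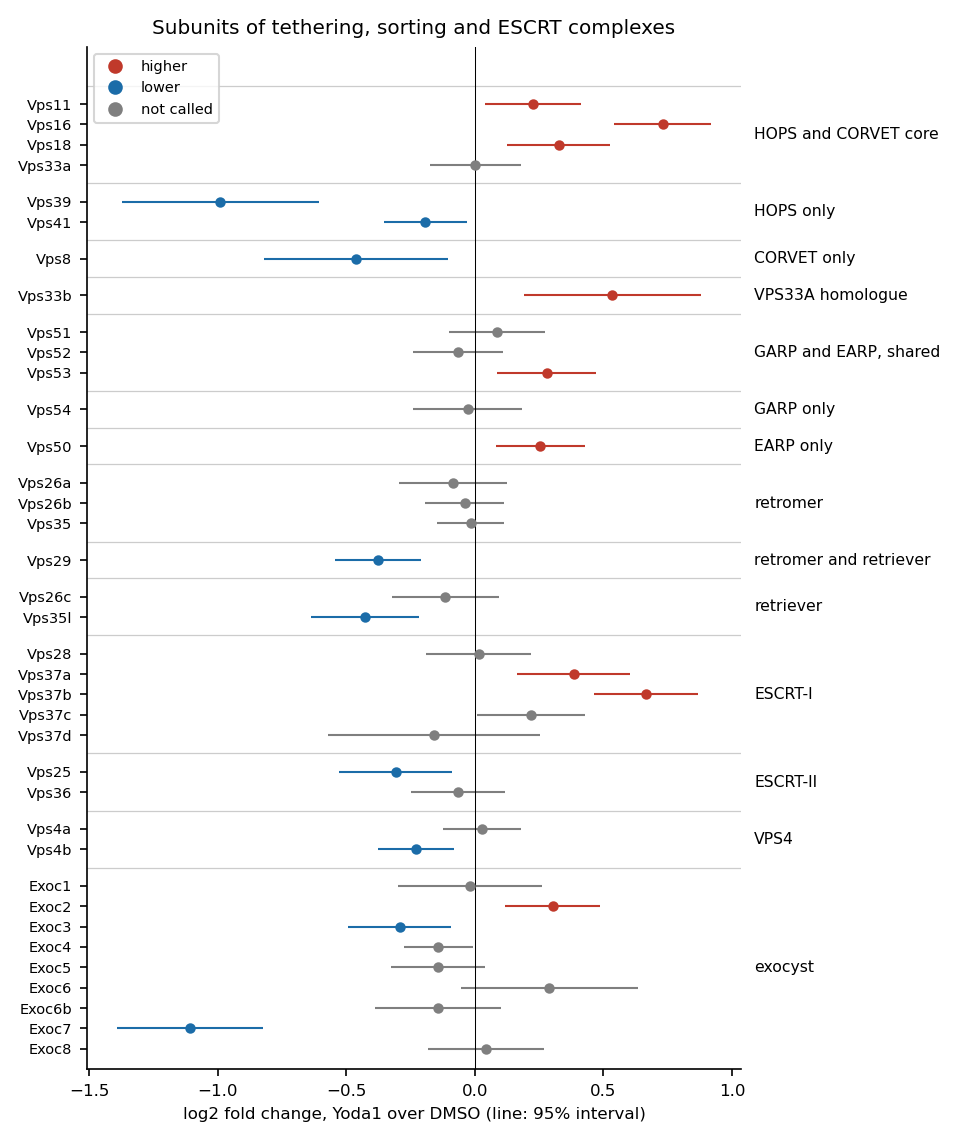
Log2 fold change (Yoda1 over DMSO) with 95% intervals for 37 subunit genes of tethering, retromer, ESCRT and exocyst complexes, coloured by call. Within HOPS and CORVET the core genes lie at 0.00 to 0.73 and Vps39, Vps41 and Vps8, specific to either complex, at -0.99 to -0.19.

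Of the GARP and EARP genes, whose complexes receive endosome-derived vesicles, Vps53 and the EARP-specific Vps50 rose 1.21-fold (95% interval 1.06 to 1.39) and 1.19-fold (1.06 to 1.34), and Vps51, Vps52 and the GARP-specific Vps54 were not called. Of the 4 VPS13 lipid-transfer genes, Vps13d was lower (1.19-fold, 1.03 to 1.38). That call was lost with no filter, trimmed-mean centring, median centring and equal summed counts. Vps9d1, which carries the exchange domain for Rab5, fell 1.50-fold (1.24 to 1.81). Vps72, which shares the name but belongs to chromatin-remodelling complexes, rose 1.20-fold (1.08 to 1.35). All of these calls were lost with the t distribution.

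Some closely related genes differed from each other. Among 42 pairs of tested genes within 20 sets of relatives, the 95% intervals of 15 pairs did not overlap and those of 27 did. In 5 pairs the genes were called in opposite directions. The share among pairs of unrelated genes was not computed, so the counts are a description of these genes and nothing about relatives as a class is read from them. Those 5 were Rab3a and Rab3b, Rab3b and Rab3d, Rab1a and Rab1b, Snx9 and Snx18, and Snap23 and Snap47. Salmon divides reads among similar transcripts, and how well it separated these relatives was not tested. With equal summed counts, Rab1a and Rab3a lost their calls. Of the 5 pairs, only Snx9 and Snx18 kept opposite calls with the t distribution.

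**Figure D5:**
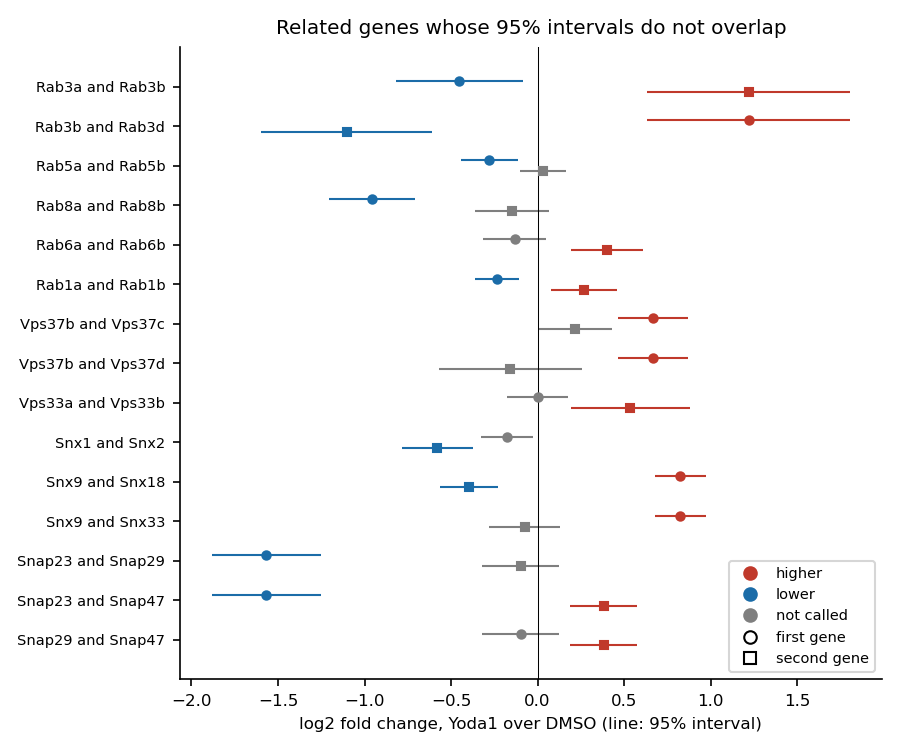
Log2 fold change (Yoda1 over DMSO) with 95% intervals for the 15 pairs of related genes whose intervals do not overlap, the first gene as a circle and the second as a square, coloured by call. In 5 pairs one gene lies to the right of zero in red and its relative to the left in blue.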

How the data were processed

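RNA-seq of mouse MC3T3-E1 cells was deposited as a table of the authors' own comparison. Per the submitters' processing notes the tools included Salmon and DESeq2 and the build was GRCm39, with no version of either tool. No source used here gives the design formula or the filters. The mean normalized count is a signal averaged by the authors over their libraries. The log2 fold change, its standard error, the Wald score and the p-value, unadjusted and adjusted, are the authors' values, per the file headers. Recomputation gave the score as fold change over standard error and the adjusted p as Benjamini-Hochberg over 14653 rows, and the authors' class had 0 exceptions to its thresholds (0.05 and 0.5). The direction rests on the table's name.

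Computed here, in Python 3.11.15 with scipy 1.17.1 and pandas 2.3.3, were folds with 95% normal intervals, implied group levels, counts per role, alternatives and motif matches. Only the calls under each alternative were run on simulated data, in which a far smaller share of genes changed than was called here. The intervals, implied levels, role counts and motif matches were not part of that simulation. Levels per kilobase used GENCODE M21 transcripts. The 152 members, role groups, lists and motifs were chosen with earlier results of these data known, and the counts are read against all tested genes without a test of lists. Named were called members above 0.5, the 3 smallest adjusted p and highest mean of each role group, sets of relatives, and up to 3 genes of each outside list, with further genes of those lists chosen after their values were seen. The core of the CLEAR motif replaced a longer form after matches of both were seen. Alternatives were a t distribution, other centring and filters, larger fold thresholds, and leaving out Vps72 and Snap91. No source used here says whether counting used strand.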

Additional observations from a re-analysis of the deposited data

How the results depend on the processing

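The member counts, 36 higher and 38 lower, stayed within 1.5 times with no filter, the stricter filter, all 3 centrings, and without Vps72 and Snap91. They fell with the t distribution of 4 degrees of freedom (10 higher and 15 lower, against 10.4% and 10.0% of all tested genes), with the authors' class (16 and 19, against 13.8% and 13.3%), with an absolute log2 fold change above 1 (3 and 5, against 4.92% and 5.22%) and in the test against 0.5 (2 and 6, against 4.79% and 4.72%). Equal summed counts, which raises every log2 fold change by 0.11, moved the split to 43 higher and 26 lower, and that of all tested genes to 28.2% and 17.1%. No called member changed sign. Of uncalled members, equal summed counts turned Exoc1 (0.085), Rab10 (0.0095), Rab28 (0.081), Rab36 (0.081), Snap29 (0.0066), Snx21 (0.0045), Snx33 (0.030), Stx12 (0.039), Vps26a (0.019), Vps26b (0.065), Vps35 (0.089), Vps36 (0.038), Vps52 (0.039) and Vps54 (0.077) above 0, and trimmed-mean centring did so for Vps35 (0.00056). The cause was not tested. No paired analysis was possible because the table holds no values per library, and no replicate could be left out. Precision follows the level, and 8 members with means under 2 had no adjusted p.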

Other observations

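Some of the larger changes carry a wider error than genes of like abundance. The ratio of a gene's standard error to the median of the 201 genes nearest in mean was above 1.5 for 6 of the 35 members called with an absolute log2 fold change above 0.5 (17.1%), against 316 of 3977 such genes in the table (7.95%). The 6 were Vps39 (1.89), Rab43 (1.86), Rab14 (1.71), Snap23 (1.64), Snx13 (1.54) and Exoc7 (1.51). Rab32 (0.87), Stx2 (1.06), Stx6 (0.94) and Snx9 (0.97) had typical errors.

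Exons of 12 of those 35 members overlap another gene in GENCODE M21, and of 6 a protein-coding gene. Besides Rab43, these are Rab24 with Prelid1, Stx18 with Nsg1, Vps16 with Pced1a, Vps37b with Hip1r and Vps9d1 with Zfp276, all on the opposite strand. Without a stated strand protocol their reads cannot be told apart.

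The 8 members without an adjusted p were Rab3c, Rab9b, Rab25, Rab26, Rab37, Snap91, Snx22 and Exoc3l2. Their means ran from 0.164 (Rab9b) to 1.76 (Rab25) normalized counts, too low to show a difference. Vamp7, Snap25 and Rab38 were not analysed here.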
